A study of Rattus norvegicus with 9 samples.

Results

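The genes described here encode 9 precursors of secreted neuropeptides or granule proteins that are known from injured and growing neurons: Gal, Npy, Vip, Adcyap1, Nts, Tac1, Sst, Scg2 and Vgf. Members were the transcript clusters, the array's gene-level probe groups, that the platform annotation pairs with exactly 1 of these symbols. Each of the 9 symbols had 1 such cluster, of 18511 clusters with 1 symbol and 36685 in all. The set was drawn up with results of these arrays in view. Gal was chosen by its measured intensity, higher in myr-SetB than in wt-SetB, so for Gal that difference is a description without a test. The differences of Gal from mCherry use the same Set arrays and are also given as a description.

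The samples were retinal ganglion cells, the projection neurons of the retina, from Sprague Dawley rats at postnatal day 4. The 3 groups had 3 arrays each. Cells of the myr-SetB group were transfected with myr-Set-β, a Set-β carrying a signal for the lipid that anchors proteins at membranes, those of wt-SetB with wild-type Set-β, and those of mCherry with the red fluorescent protein as control. The cells had been purified by immunopanning, and all groups also received the green fluorescent plasmid pMAX-GFP. They were sorted for green fluorescence the next day and grown on laminin until RNA was taken 3 days after transfection. The Set protein binds histones and restrains a serine/threonine phosphatase, and the comparisons ask what either form of Set-β alters. The promoter that drives the constructs and the species of Set-β are not stated in the labels. Because 0 clusters carried the single symbol Set, the transfected gene was not checked. The labels call the arrays biological replicates without naming litters or cultures. Each p-value therefore sets a difference only against the array-to-array spread, part of which may be technical.

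Neuropeptides are cut from larger precursors in the secretory pathway, stored in dense-core vesicles and released on strong stimulation to act on G-protein-coupled receptors. In axotomised sensory neurons of rodents, galanin, neuropeptide Y, vasoactive intestinal peptide and the pituitary peptide PACAP are classic injury-induced messages, whereas substance P and somatostatin decline there. In the retina several of these peptides mark amacrine cells, while PACAP is a cotransmitter of the rat ganglion cells that project to the circadian clock. Many of these genes are textbook targets of cAMP signalling through the cAMP response element, TGACGTCA, or its shorter core TGACG.

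The RefSeq promoter windows of all 9 genes, from 250 bases before to 50 bases after the annotated start on build GRCr8, were searched for both motifs on both strands. The full element was in 3 of 9 windows, those of Scg2, Vgf and Sst, against 1.83% of 33469 promoters. The core was in 7 of 9, against 21.2%, and each full element, a palindrome, holds the core on both strands. The windows below show these matches in capitals with their flanks, 5′ to 3′ on the strand of the gene, because the genes that carry the full element can then be followed in the values that come after. Counted from the start, the first base of the match lies at -123 in Scg2, at -90 in Vgf and at 3 in Sst. In Gal it lies at -63, in Vip at -97, in Nts at -171 and in Tac1 at -206. Npy and Adcyap1 held neither motif in this window.
Scg2 (chr9:88256971-88257000, minus strand): ggctgagccggTGACGTCAgcgaggaatgc
Vgf (chr12:25277092-25277121, minus strand): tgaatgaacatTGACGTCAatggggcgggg
Sst (chr11:90461537-90461566, plus strand): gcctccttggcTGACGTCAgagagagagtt
Gal (chr1:210084618-210084647, minus strand): gcgctgagcgggTGACGcggcagctcccac
Vip (chr1:44470371-44470400, plus strand): ggatcaccactgTGACGtctttcgaggagc
Tac1 (chr4:36645365-36645394, plus strand): tccctaaaattgCGTCAtttcgaacccaat
Nts (chr7:39461042-39461071, minus strand): attagggaagatCGTCActttcaatcaagg
In Tac1 and Nts the core reads on the opposite strand, so the capitals show its reverse complement.

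Levels are log2 of the deposited intensity, which the authors scaled to a median of 100 on every array. As a mark of background, the 90th percentile of 1128 odorant receptor clusters, genes of the olfactory epithelium, was taken on each array; it lay between 6.89 and 7.64. Differences are log2 values, tested group minus control as named, with the standard error of a limma fit of all 9 arrays and p-values adjusted by the Benjamini-Hochberg method over 18343 clusters whose mean log2 level was at least 6.65. Of the 9 genes 8 passed this level filter, and Vip did not. The filter uses the mean over all arrays, so it does not favour a group.

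The arrays differed in ways that touch every value below. The spread of log2 intensity within an array, between its 10th and 90th percentiles, was 3.82 to 4.46 in myr-SetB, 4.12 to 4.21 in wt-SetB and 4.29 to 4.54 in mCherry. All 14 ganglion cell markers, among them Rbpms, Pou4f2 and Thy1, passed the level filter, and 9 to 12 of them in myr-SetB, 12 in wt-SetB and 12 or 13 in mCherry were above the odorant receptor mark. Their summed intensity was 5875, 8531 and 11258 on the myr-SetB arrays, 10270, 8488 and 6589 on the wt-SetB arrays and 15897, 9129 and 11853 on the mCherry arrays (replicates 1 to 3). The sum of 6 endothelial and mural markers was 736, 761 and 751 on the 3 arrays numbered 1 and 4603 to 7488 on the other 6 arrays. Of the 6 markers Tagln varied most over the 9 arrays (SD 2.49), followed by Pdgfrb (0.90). Cdh5, Cldn5, Rgs5 and Col1a1 had SDs of 0.11 to 0.33, and Cdh5 and Cldn5 were above the odorant receptor mark on 0 arrays. Because the arrays numbered 1 stand apart in this sum, results are also given without them. In bulk RNA, fewer cells of a type and less RNA per cell cannot be told apart.

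Galanin, the peptide of the Gal gene, acts on galanin receptors and is among the messages induced most in axotomised neurons. Gal had 8.41, 8.94 and 9.78 in myr-SetB, 8.73, 7.89 and 7.87 in wt-SetB, and 9.60, 8.65 and 8.91 in mCherry. The highest value was that of myr-SetB replicate 3, the lowest were those of wt-SetB replicates 2 and 3, and no pair of groups was free of overlap. Gal averaged 8.16 ± 0.49 in wt-SetB and 9.05 ± 0.49 in mCherry (SD, n = 3 each), a difference of -0.89 ± 0.40 (SE), or 0.540-fold. The 95% interval of this difference was -1.80 to 0.03. Because the wt-SetB values entered the choice of Gal, the interval is a description and no p-value is given. Quantile normalization gave -0.58 and cyclic loess -0.54. Without mCherry replicate 1 the difference was -0.61, and without the arrays numbered 1 it was -0.90.

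In myr-SetB, Gal stood close to mCherry. It averaged 9.04 ± 0.69 in myr-SetB and 9.05 ± 0.49 in mCherry, a difference of -0.01 ± 0.40 with an interval of -0.92 to 0.91, also without a test. The sign of this difference turned with the processing, to 0.29 after quantile normalization, 0.39 after cyclic loess and 0.58 without the arrays numbered 1. Between the Set groups, the contrast that brought Gal into the set, the difference of myr-SetB from wt-SetB was 0.88, or 1.84-fold. It was 0.51 without myr-SetB replicate 3 and 1.48 without the arrays numbered 1.

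**Figure D1:**
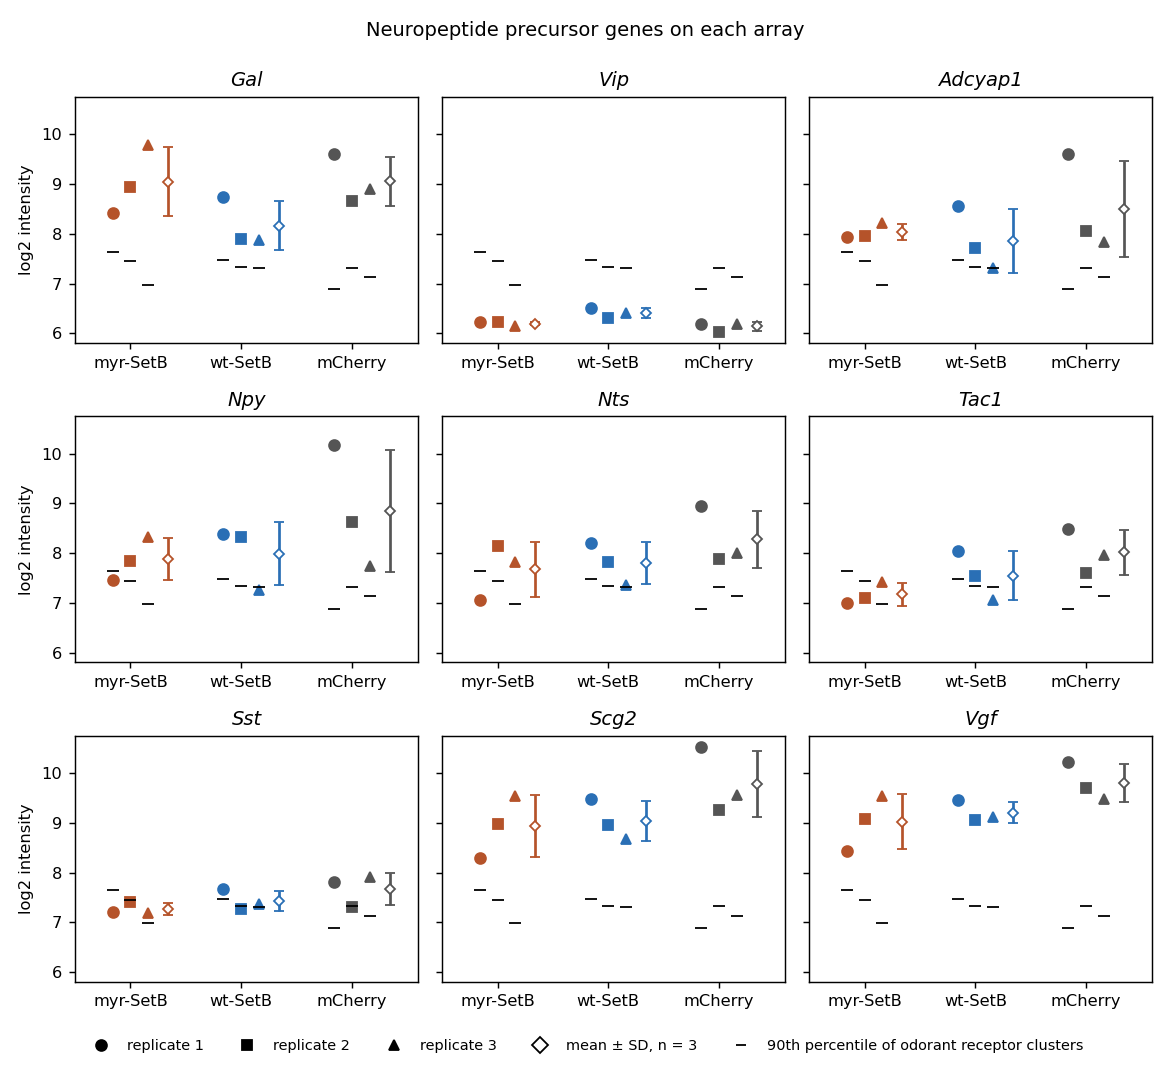
Log2 intensity of the 9 genes on each array (vertical axis), by group (horizontal axis); filled symbols are arrays, open diamonds with bars are mean ± SD (n = 3), and dashes are the 90th percentile of odorant receptor clusters on the same array. mCherry replicate 1 is the highest point for Npy, Nts, Adcyap1, Tac1, Scg2 and Vgf, Gal is highest on myr-SetB replicate 3, and Vip lies below the dash on all 9 arrays.

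Npy encodes neuropeptide Y, an inhibitory peptide of many central and sympathetic neurons. Npy had 7.47, 7.85 and 8.33 in myr-SetB, 8.38, 8.32 and 7.26 in wt-SetB, and 10.16, 8.63 and 7.75 in mCherry. The range of the mCherry arrays contained 4 of the other 6 values, and the SD of 1.22 there was the largest of any of the 9 genes in any group. Npy differed from mCherry by -0.97 ± 0.58 (SE) in myr-SetB and by -0.86 ± 0.58 in wt-SetB, with limma adjusted p of 0.448 and 0.468. Without mCherry replicate 1 these differences were -0.31 and -0.20, and without all arrays numbered 1 they were -0.10 and -0.40.

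Adcyap1 encodes PACAP, which raises cAMP in its target cells. Adcyap1 had 7.95, 7.95 and 8.21 in myr-SetB, 8.56, 7.71 and 7.31 in wt-SetB, and 9.60, 8.06 and 7.84 in mCherry. mCherry replicate 1 stood above all other arrays, and the groups overlapped. The differences from mCherry were -0.47 ± 0.47 in myr-SetB and -0.64 ± 0.47 in wt-SetB (limma adjusted p = 0.587 and 0.485). With quantile normalization they were -0.22 and -0.41, and with cyclic loess -0.18 and -0.37. Without mCherry replicate 1 they were 0.08 and -0.09, and without all arrays numbered 1 they were 0.13 and -0.44.

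Vip encodes vasoactive intestinal peptide, a relative of PACAP, and its cluster was the dim one of the set. Vip had 6.22, 6.22 and 6.16 in myr-SetB, 6.51, 6.31 and 6.40 in wt-SetB, and 6.19, 6.03 and 6.19 in mCherry, all below the odorant receptor mark of the same array. The 3 wt-SetB values were above the 3 mCherry values, as in 7.31% of tested clusters, and the 3 myr-SetB values were below the 3 wt-SetB values, as in 1.76%. Both shares are of clusters past the level filter, so they may not hold for clusters as dim as Vip. In a fit of all clusters with no level filter Vip differed from mCherry by 0.06 ± 0.13 in myr-SetB and by 0.27 ± 0.13 in wt-SetB (limma adjusted p = 0.860 and 0.561). With cyclic loess the first of these was -0.0094. At this level the signal cannot be told from that of odorant receptor clusters, and no level of Vip message is read from it.

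Nts encodes neurotensin, a peptide that acts on G-protein-coupled receptors and on sortilin. Nts had 7.06, 8.15 and 7.82 in myr-SetB, 8.21, 7.83 and 7.36 in wt-SetB, and 8.94, 7.89 and 7.999 in mCherry. The extremes were myr-SetB replicate 1 and mCherry replicate 1, and the groups overlapped. The differences from mCherry were -0.60 ± 0.38 in myr-SetB and -0.48 ± 0.38 in wt-SetB (limma adjusted p = 0.453 and 0.503). With quantile normalization they were -0.41 and -0.22, and with cyclic loess -0.35 and -0.24. Without mCherry replicate 1 they were -0.27 and -0.15, and without all arrays numbered 1 they were 0.039 and -0.35.

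Tac1, the precursor of substance P and neurokinin A, had 6.99, 7.10 and 7.42 in myr-SetB, 8.05, 7.54 and 7.06 in wt-SetB, and 8.49, 7.60 and 7.96 in mCherry. Every myr-SetB array was below every mCherry array, the only member of which this held, while wt-SetB overlapped both. Tac1 averaged 7.17 ± 0.22 in myr-SetB and 8.02 ± 0.45 in mCherry (SD, n = 3 each). The difference was -0.85 ± 0.30 (SE), or 0.556-fold, with a 95% interval of -1.54 to -0.16 and a limma adjusted p of 0.447. Under both other normalizations it was -0.68, and it was -0.52 without the arrays numbered 1. In wt-SetB the difference from mCherry was -0.47 ± 0.30 (limma adjusted p = 0.461), and quantile normalization gave -0.25, cyclic loess -0.29 and leaving out mCherry replicate 1 -0.23. Tac1 was below the odorant receptor mark on myr-SetB replicates 1 and 2 and on wt-SetB replicate 3, so the size of its difference is uncertain.

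Sst encodes somatostatin, an inhibitory peptide, and its promoter window carried the full element. Sst had 7.21, 7.41 and 7.18 in myr-SetB, 7.67, 7.27 and 7.36 in wt-SetB, and 7.81, 7.31 and 7.91 in mCherry. These values were close to the odorant receptor mark and were above it on 5 of 9 arrays. The differences from mCherry were -0.41 ± 0.21 in myr-SetB and -0.24 ± 0.21 in wt-SetB (limma adjusted p = 0.447 and 0.522). With quantile normalization they were -0.24 and -0.07, with cyclic loess -0.28 and -0.10, and without the arrays numbered 1 they were -0.31 and -0.29. The wt-SetB difference ranged from -0.43 (mCherry replicate 2 left out) to -0.13 (mCherry replicate 3 left out), and was -0.16 with wt-SetB replicate 2 left out.

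Scg2 and Vgf encode granins, acidic proteins packed into dense-core vesicles that are themselves cut into peptides; Vgf is named for its induction by nerve growth factor. Both carried the full element, and both were above the odorant receptor mark on all 9 arrays. Scg2 had 8.30, 8.97 and 9.54 in myr-SetB, 9.48, 8.95 and 8.68 in wt-SetB, and 10.52, 9.26 and 9.55 in mCherry. Vgf had 8.44, 9.08 and 9.54 in myr-SetB, 9.45, 9.05 and 9.11 in wt-SetB, and 10.22, 9.69 and 9.48 in mCherry. For each of these genes mCherry replicate 1 was the highest array and myr-SetB replicate 1 the lowest.

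Every wt-SetB value of Vgf was below every mCherry value, whereas the myr-SetB arrays overlapped both groups. With either other normalization wt-SetB and mCherry overlapped. Vgf averaged 9.02 ± 0.55 in myr-SetB, 9.21 ± 0.21 in wt-SetB and 9.80 ± 0.38 in mCherry (SD, n = 3 each). The differences from mCherry were -0.77 ± 0.30 (SE) in myr-SetB, with a 95% interval of -1.46 to -0.09, and -0.59 ± 0.30 in wt-SetB, with an interval of -1.28 to 0.10. The limma adjusted p was 0.447 for each. Quantile normalization gave -0.46 in myr-SetB and -0.23 in wt-SetB, and cyclic loess gave -0.32 and -0.21. Scg2 differed from mCherry by -0.84 ± 0.41 in myr-SetB and by -0.74 ± 0.41 in wt-SetB (limma adjusted p = 0.447 for each). With quantile normalization these were -0.55 and -0.41, and with cyclic loess -0.39 and -0.36. Without the arrays numbered 1 the myr-SetB differences were -0.28 for Vgf and -0.14 for Scg2, and the wt-SetB differences were -0.50 for Vgf and -0.58 for Scg2.

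**Figure D2:**
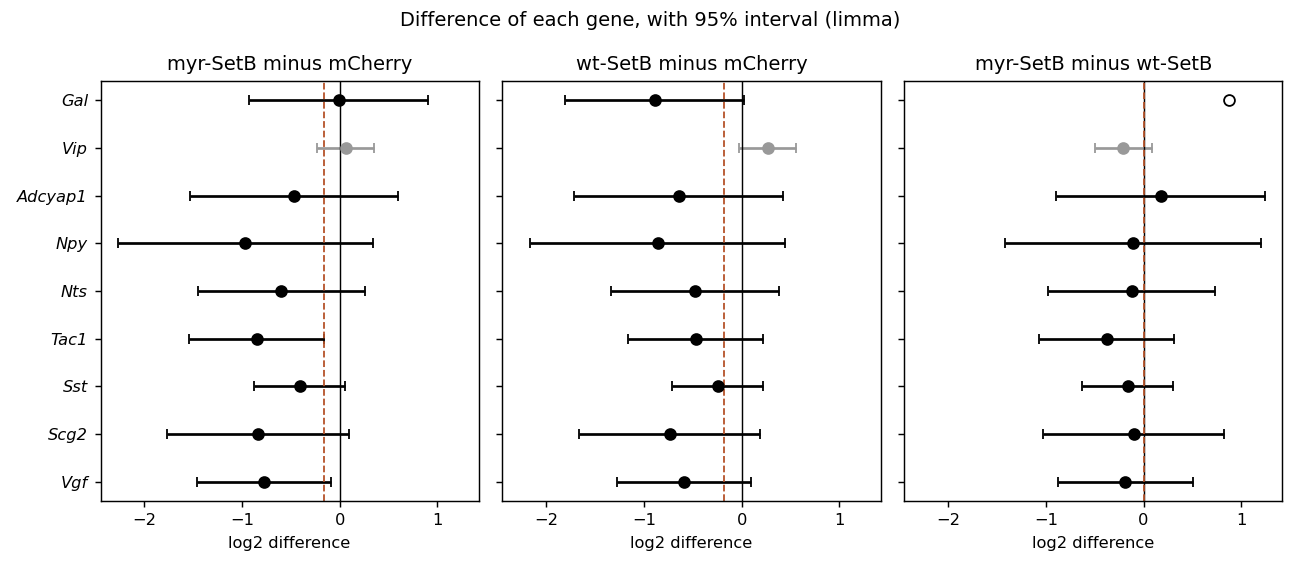
Log2 difference of each gene (horizontal axis) in the 3 comparisons, with the 95% interval of the limma fit; the dashed line is the median of all tested clusters, Vip in grey comes from the fit with no level filter, and the open point is Gal in the contrast that chose it, drawn without an interval. The intervals of Tac1 and Vgf in myr-SetB minus mCherry lie below 0, and all other intervals cross 0.

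Counted over the 8 genes past the filter, the difference of myr-SetB from mCherry was below 0 in 8, as in 63.9% of all tested clusters, and 0 genes passed an adjusted p of 0.05 (0% of clusters). Gal is among the 8 for direction, overlap and median, although its myr-SetB values had a part in its choice, and is left out of the counts of p-values. At an unadjusted limma p under 0.05, 2 of the other 7 were lower (Tac1 and Vgf), against 6.92% of clusters. In either direction 9.79% of clusters passed. The 2 genes became 1 with quantile normalization, cyclic loess, a replicate block or only these groups fitted. The count was 0 without myr-SetB replicate 1, myr-SetB replicate 2, mCherry replicate 1 or all arrays numbered 1. It was 3 without myr-SetB replicate 3, mCherry replicate 2 or mCherry replicate 3. With array weights, whose estimate did not converge, it was 4. Clusters at this p in either direction numbered 1796 in the main fit. In the order named, they were 1541, 1685, 1754 and 891 with 1 gene and 642, 1033, 741 and 494 with 0. With 3 genes they were 6141, 2729 and 994, and with 4 genes 8627. Groups did not overlap for 1 of 8, against 6.85% of clusters that were lower without overlap. The median difference of the 8 genes was -0.69 and that of all tested clusters -0.16. Among the 8399 clusters whose mean level lies between those of Sst and Vgf, the median difference was -0.31 and 71.9% were below 0. Without mCherry replicate 1 the difference was below 0 in 6 of 8 genes, without myr-SetB replicate 1 or 2 in 7, and without all arrays numbered 1 in 5, with medians of -0.32, -0.45, -0.81 and -0.12.

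In wt-SetB the difference from mCherry was below 0 in 8 of 8 genes, as in 65.5% of tested clusters, with a median of -0.62 against -0.18 for all tested clusters and -0.33 for those in the same range of levels. This count and this median include Gal, whose wt-SetB values had a part in its choice. Gal left out, 0 genes passed limma's adjusted threshold (0% of clusters) and 0 the unadjusted one. The latter was passed by 7.13% of clusters in this direction and by 10.2% in either. Without overlap and lower was 1 of 8, Vgf, a state that held for 26.4% of clusters. All 8 genes kept a difference below 0 when any 1 array was left out and with both other normalizations. The median was -0.22 without mCherry replicate 1 and -0.46 without all arrays numbered 1. The comparisons of myr-SetB and wt-SetB with mCherry share the mCherry arrays.

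Quantile normalization brought the median of all tested clusters to -0.03 in both comparisons with mCherry, and cyclic loess to -0.01 in myr-SetB and -0.03 in wt-SetB. The medians of the 8 genes were then -0.44 and -0.34 in myr-SetB and -0.33 with either method in wt-SetB. Of the 8 genes, 7 stayed below 0 in myr-SetB under each of these normalizations, Gal being the exception, and 8 in wt-SetB.

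**Figure D3:**
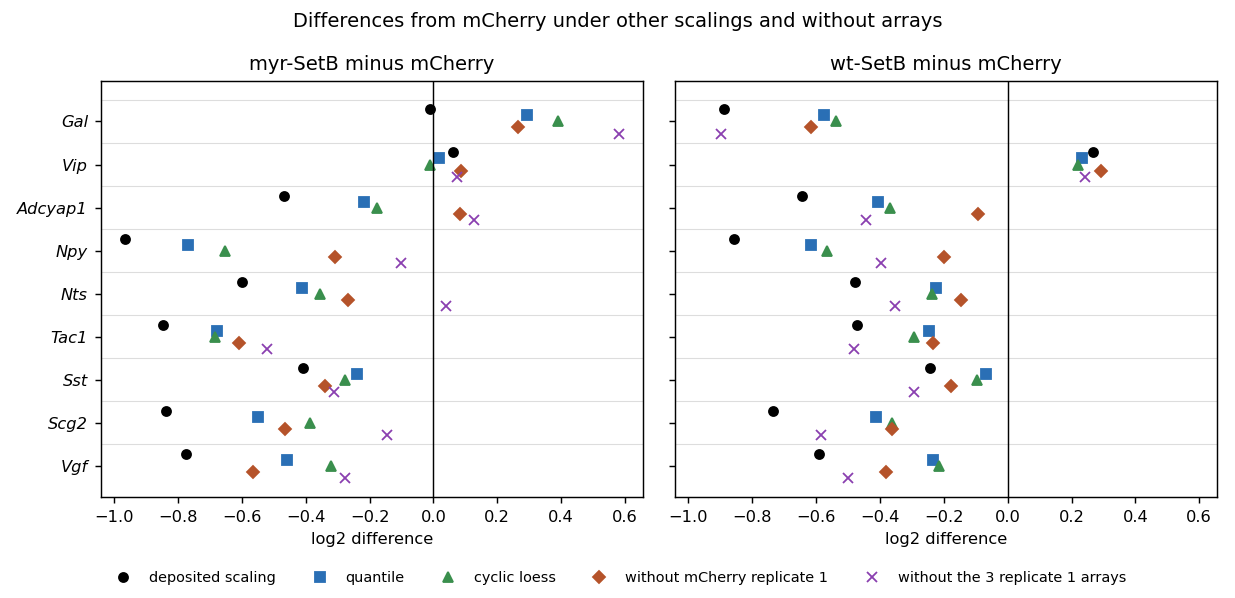
Log2 difference of each gene from mCherry (horizontal axis) in myr-SetB (left) and wt-SetB (right) with the deposited scaling, with 2 other normalizations, and without mCherry replicate 1 or the 3 arrays numbered 1. In myr-SetB the points of Gal, Adcyap1 and Nts cross 0 without the arrays numbered 1, whereas in wt-SetB all points of the 8 genes other than Vip stay below 0.

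Between the Set groups the 7 filtered genes other than Gal differed by -0.38 (Tac1) to 0.18 (Adcyap1), and 0 of them passed limma's test with or without adjustment, against 1.13% of tested clusters at an unadjusted p under 0.05 (208) and 0% at an adjusted one. Their widest interval was that of Npy, -1.41 to 1.20, and the narrowest that of Sst, -0.63 to 0.30, and the fit could not resolve differences within them. Of these 7 differences 6 were below 0, against 48.5% of clusters. The count was 2 without myr-SetB replicate 1, 3 without wt-SetB replicate 1, 5 without wt-SetB replicate 2, 7 without wt-SetB replicate 3 and 2 without all arrays numbered 1.

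The array with the highest mean of the 9 genes also had the highest mean of the ganglion cell markers, and the array with the lowest mean of the genes the lowest of the markers. mCherry replicate 1 was the highest array for 6 of 9 genes and myr-SetB replicate 1 the lowest for 4. The mean log2 level of the 9 genes was 7.56, 7.96 and 8.22 on the myr-SetB arrays, 8.34, 7.88 and 7.60 on the wt-SetB arrays and 9.06, 8.12 and 8.18 on the mCherry arrays (replicates 1 to 3). The mean of the 14 ganglion cell markers was 8.16, 8.65 and 8.99, 8.95, 8.77 and 8.48, and 9.57, 8.83 and 9.15 on the same arrays. The median difference of these markers from mCherry was -0.55 in myr-SetB and -0.48 in wt-SetB, with 14 of 14 below 0 in each (14 and 13 with quantile normalization) and 0 past the adjusted threshold. Of all tested clusters 63.9% and 65.5% were below 0, and 53.0% and 53.5% with quantile normalization. With the deposited scaling, 73.9% and 73.8% of clusters at or above the 75th percentile of mean level were below 0. The part of the markers in the differences of the neuropeptide genes was not tested.

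**Figure D4:**
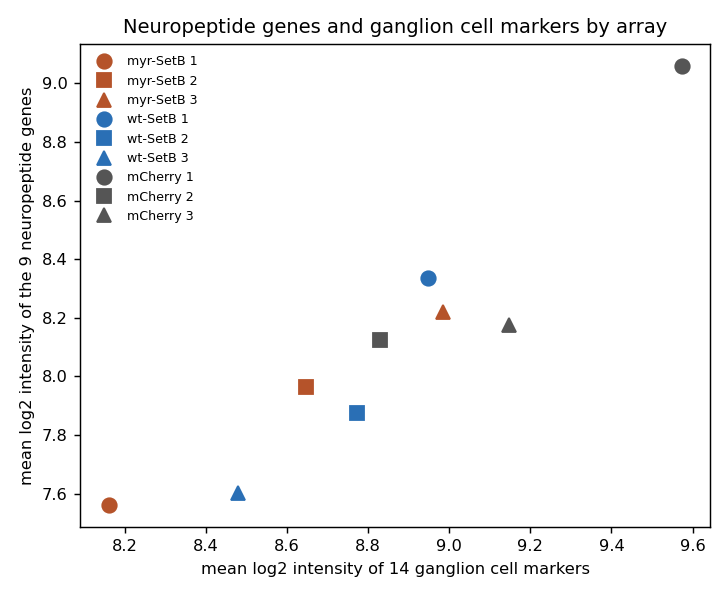
Mean log2 intensity of the 9 neuropeptide genes (vertical axis) against that of 14 ganglion cell markers (horizontal axis); each point is an array, coloured by group and shaped by replicate number. mCherry replicate 1 is at the top right (9.57 and 9.06) and myr-SetB replicate 1 at the bottom left (8.16 and 7.56).

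Amacrine cells make several of these peptides in the retina. Markers of amacrine and horizontal cells were listed together, and 13 of 14 were on the array. Of these 13, 0 to 3 were above the odorant receptor mark on the myr-SetB arrays, 1 or 2 on the wt-SetB arrays and 2 to 5 on the mCherry arrays. Their summed intensity was 1322 to 1435 in myr-SetB, 1202 to 1369 in wt-SetB and 1397 to 1808 in mCherry, where replicate 1 had the highest sum. No array value was 0. Above the mark on 0 of 9 arrays were Gad1, Slc32a1, Chat, Tfap2a, Prox1, Lhx1 and Onecut1. Th was above it on 1 array, Gad2, Calb1 and Calb2 on 2 each, the amacrine transcription factor gene Tfap2b on 6 and the glycine transporter gene Slc6a9 on 8. Glial and progenitor markers (9 of 10 on the array) summed to 1161, 885 and 1076 on the myr-SetB, wt-SetB and mCherry arrays numbered 1 and to 3082 to 5435 on the other 6 arrays. Vim was the brightest of them and varied most (mean 10.55, SD 1.74 over the 9 arrays). Rlbp1, Slc1a3, Sox9, Sox2, Gfap and Aqp4 were above the mark on 0 arrays, Hes1 on 2 and Apoe on 4. Microglial markers (8 of 8) summed to 1035 to 1397 in myr-SetB, 1033 to 1344 in wt-SetB and 940 to 1165 in mCherry. The part of these cells in the results was not tested.

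The likeness of patterns was measured as Pearson's r of log2 values over the 9 arrays, which share their libraries and signal range with all genes and give no test. Among Npy, Nts, Adcyap1, Tac1, Scg2 and Vgf the 15 pairs had r of 0.70 to 0.94, and 0.64 to 0.89 after quantile normalization. These are the genes whose highest array was mCherry replicate 1, a shared extreme that r also reflects. With them Sst had r of 0.38 (Npy) to 0.78 (Tac1), and 0.14 to 0.62 after quantile normalization. Gal had 0.30 to 0.73 with the other 7 genes past the filter, and -0.03 to 0.64 after quantile normalization. The clusters most like Gal were those of the transcription factor gene Tshz1 (r = 0.98), Dlg5l15 (0.97) and the mitochondrial ribosomal protein gene Mrps26 (0.97). Those most like Vgf, which had the highest mean log2 value of the set, were Tmx1 (0.99), Clcn5 (0.98) and the neuronal microtubule protein gene Dcx (0.98).

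The machinery that cuts and stores these peptides was followed with a list of 28 genes, of which 25 were on the array and 19 passed the level filter. Their median difference from mCherry was -0.60 in myr-SetB and -0.54 in wt-SetB, with 19 of 19 below 0 in each comparison. Of all tested clusters 63.9% and 65.5% were below 0, and of those at or above the 75th percentile of mean level 73.9% and 73.8%. With quantile normalization 18 and 17 of 19 were below 0, against 53.0% and 53.5% of clusters. By limma 0 genes passed the adjusted threshold, and 3 in each comparison were lower at an unadjusted p under 0.05, against 6.92% and 7.13% of clusters. Pcsk1n, an inhibitor of a prohormone convertase, averaged 8.40 ± 0.41 in myr-SetB and 9.20 ± 0.40 in mCherry (SD, n = 3 each), a difference of -0.80 ± 0.26 (SE, limma adjusted p = 0.447). Chgb, chromogranin B, averaged 8.50 ± 0.20 in wt-SetB and 9.26 ± 0.53 in mCherry, a difference of -0.76 ± 0.32 (SE, limma adjusted p = 0.447). Dnajc5, a chaperone of vesicle release, differed from mCherry by -0.81 ± 0.26 in myr-SetB and by -0.63 ± 0.26 in wt-SetB. With quantile normalization the difference of Pcsk1n was -0.50, that of Chgb -0.43 and those of Dnajc5 -0.50 and -0.29. Syt4, a synaptotagmin of dense-core vesicles, differed by -0.60 ± 0.38 and -0.53 ± 0.38 in the same order of groups. Between the Set groups the list's median was -0.05, and 0 genes passed at any threshold. There Pcsk1n had -0.43 ± 0.26 and Ptprn2, a dense-core vesicle protein, -0.23 ± 0.21. Both were lower without overlap, as were 1.76% of tested clusters. The glutaminyl cyclase gene Qpct had 0.33 ± 0.29 and Scg3, a granin, 0.23 ± 0.42, both with overlap.

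Receptors for the peptides were mostly dim. Of 22 listed receptors 17 were on the array and 6 passed the level filter, and 0 of these passed limma's test at any threshold in the 3 comparisons. Sort1, the neurotensin receptor sortilin, was above the odorant receptor mark on 8 of 9 arrays, and Adcyap1r1, the PACAP receptor, on 3. Sort1 differed from mCherry by -0.32 ± 0.25 in myr-SetB and by -0.51 ± 0.25 in wt-SetB (limma adjusted p = 0.512 and 0.447), and by -0.11 and -0.25 with quantile normalization. Galr1, a galanin receptor, differed by -0.18 ± 0.17 in myr-SetB (adjusted p = 0.571).

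Among other neuropeptide precursors most differences from mCherry were above 0. Of 52 listed precursors 47 were on the array and 27 passed the level filter. The difference from mCherry was below 0 in 9 of 27 in myr-SetB and in 10 of 27 in wt-SetB, with medians of 0.07 and 0.11, against -0.16 and -0.18 for all tested clusters. With quantile normalization 6 and 5 of 27 were below 0, against 53.0% and 53.5% of clusters. On the single arrays 8 to 21 of the 47 were above the odorant receptor mark. Cartpt, the precursor of the CART peptide of some ganglion cells, averaged 8.58 ± 0.29 in myr-SetB and 9.51 ± 0.48 in mCherry. It was lower without overlap, as were 6.85% of tested clusters. The difference was -0.94 ± 0.41 (SE, limma adjusted p = 0.447). In wt-SetB its difference was -0.57 ± 0.41. Nucb2, the precursor of nesfatin, differed by -0.45 ± 0.63 in myr-SetB and by -0.89 ± 0.63 in wt-SetB. Higher values with the smallest p were those of Apln, apelin, in myr-SetB (0.29 ± 0.18, limma adjusted p = 0.452) and Galp, a galanin-like peptide, in wt-SetB (0.38 ± 0.21, limma adjusted p = 0.447). Apln was above the odorant receptor mark on 9 arrays and Galp on 2.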

How the data were processed

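Gene expression was measured on 9 Affymetrix Rat Gene 2.0 ST arrays, 3 per group, from amplified RNA. Per the labels and the series' design text, the authors computed RMA values with Affymetrix Expression Console (no version stated) and normalized each sample to its median. The deposited table holds intensity on a linear scale, with a median of 100 on each array, which leaves the signal range of an array free. Precision is limited by the number of arrays. No array coordinates were used; promoter coordinates are those of RefSeq.

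Symbols came from the platform annotation (18511 clusters with 1, 575 with several, 17599 with none), updated by gene ID through RefSeq GRCr8 for 18394. The intensities were log2-transformed, and group means were fitted with limma 3.58.1 in R 4.3.3 (6 residual and 2.82 prior degrees of freedom, two-sided). Clusters below the median of the cluster means were left out. The fit was tested on simulated data for myr-SetB minus mCherry with 18343 clusters: it recovered 29% of the genes changed by 1 log2 unit and 76% of the genes changed by 2, and made 6 false calls. The simulated noise was drawn independently for each cluster and array. It lacked the differences in signal range and markers that the real arrays showed, so these rates may not hold for them. Alternatives were quantile and cyclic loess normalization, no filter and a filter at the 75th percentile, a replicate block, fits of 2 groups, array weights, another variance prior and leaving out arrays. Genes outside the 9 were named by smallest p per list, comparison and direction, by highest mean, or by likeness of pattern. The members and lists were chosen with earlier results of these data known. Correlations of deviations from group means were -0.07 to 0.38 over the 9 pairs of arrays with the same replicate number and -0.40 to 0.36 over the 18 other pairs. The labels name no pairing, so the main fit had no replicate term and the replicate block was an alternative. The arrays numbered 1 shared low endothelial and mural sums. Whether a number marks a shared preparation was not tested.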

Additional observations from a re-analysis of the deposited data

How the results depend on the processing

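Of the 159 member differences recomputed under the alternatives in each comparison, 159 kept their sign in wt-SetB minus mCherry, 148 in myr-SetB minus mCherry and 144 in myr-SetB minus wt-SetB. In myr-SetB minus mCherry the sign turned for Gal with quantile normalization (0.29) and cyclic loess (0.39), for Vip with cyclic loess (-0.0094) and for Nts with array weights (0.026). Leaving out arrays gave -0.38 to 0.58 for Gal, -0.80 to 0.13 for Adcyap1 and -0.84 to 0.039 for Nts. In myr-SetB minus wt-SetB array weights gave 0.36 for Nts and 0.032 for Sst, and leaving out arrays gave -0.47 to 0.30 for Npy, -0.36 to 0.39 for Nts, -0.099 to 0.57 for Adcyap1, -0.40 to 0.44 for Scg2 and -0.45 to 0.23 for Vgf. Leaving out all arrays numbered 1 was chosen after seeing the data. The causes were not tested.

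Clusters past an adjusted p of 0.05 numbered 0 in every comparison and setting except array weights, which gave 5903 in myr-SetB minus mCherry and 1270 in myr-SetB minus wt-SetB. There Tac1, Vgf and Scg2 had limma adjusted p of 0.0139, 0.0240 and 0.0425 against mCherry. The weight of myr-SetB replicate 2 was 165.0 and those of the other 8 arrays 0.15 to 1.68, and the weight estimate did not converge. At an unadjusted p under 0.05 the 1796 clusters of myr-SetB minus mCherry became 2986 with no filter, 842 with the stricter filter, 891 with only 2 groups, 8627 with array weights and 494 to 6141 without arrays. The 1865 of wt-SetB minus mCherry became 3043, 885, 4262, 6279 and 880 to 3862. The 208 of myr-SetB minus wt-SetB became 749 with no filter, 70 with the stricter filter, 4514 with array weights and 182 to 833 without arrays. With the replicate block they were 1754, 1937 and 251, and 0 members passed the adjusted threshold. The members at an unadjusted p under 0.05 in myr-SetB minus mCherry were 1 with this block, against 2 without it. Of the 9 arrays 5 correlated best with an array of their own number.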

Other observations

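Regulators that bear on neuropeptide genes were read from a list of 24 genes of cAMP and activity signalling, of which 23 were on the array and 19 passed the level filter. Below mCherry were 17 of 19 in myr-SetB and 16 in wt-SetB, with medians of -0.30 and -0.37. Of all tested clusters 63.9% and 65.5% were below it, and of those at or above the 75th percentile of mean level 73.9% and 73.8%. With quantile normalization 13 and 12 were below mCherry, against 53.0% and 53.5% of clusters. By limma 0 genes passed the adjusted threshold. Creb1, the factor that binds the cAMP response element, averaged 8.48 ± 0.29 in wt-SetB and 9.36 ± 0.49 in mCherry (SD, n = 3 each), a difference of -0.87 ± 0.42 (SE, adjusted p = 0.447). Prkaca, a catalytic subunit of protein kinase A, had -1.16 ± 0.51 in wt-SetB (limma adjusted p = 0.447). It was above the odorant receptor mark on 4 of 9 arrays, and its SD in mCherry was 1.12, so the size of this difference is uncertain. Jund, a partner in AP-1, had -0.47 ± 0.19 in myr-SetB (limma adjusted p = 0.447). With quantile normalization Creb1 had -0.53, Prkaca -0.93 and Jund -0.25.

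Of 20 listed axon injury genes 19 were on the array and 18 passed the filter. Below mCherry were 16 of 18 in each Set group, against the same 63.9% and 65.5% of clusters. Of clusters at or above the 75th percentile of mean level it was 73.9% and 73.8%. With quantile normalization 15 and 14 were below mCherry in myr-SetB and wt-SetB, against 53.0% and 53.5% of clusters. Ddit3, a factor of the integrated stress response, averaged 8.78 ± 0.57 in myr-SetB, 8.93 ± 0.22 in wt-SetB and 9.74 ± 0.24 in mCherry. The differences from mCherry were -0.96 ± 0.29 and -0.81 ± 0.29 (limma adjusted p = 0.447 for each), and -0.64 and -0.44 with quantile normalization. Both Set groups were below mCherry without overlap, as were 6.85% of tested clusters in myr-SetB and 26.4% in wt-SetB. Gap43, the growth cone protein, had -0.33 ± 0.37 in myr-SetB and -0.75 ± 0.37 in wt-SetB. Socs3, a cytokine signalling inhibitor, had 0.11 ± 0.15 and 0.25 ± 0.15 in the same order (limma adjusted p = 0.687 and 0.452). In wt-SetB Socs3 was above mCherry without overlap, as were 7.31% of tested clusters.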
